A study of Mus musculus with 4 samples.

Results

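The genes of the mitochondrial respiratory chain and ATP synthase were described in mouse hippocampus by complex, I to V. They were taken from the scanner files by symbol: every gene whose name begins with Nduf, Sdha to Sdhd, Uqcr, Cox4 to Cox8, or Atp5. The rule gave 96 genes with 150 probes, of 37294 genes on the array. Complex I had 43 of them, complex II 8, complex III 8, complex IV 19 and complex V 18. Of the 96, 73 encode subunits of the complexes common to most tissues. The other 23 are 7 assembly factors of complex I, 4 of complex II, 8 tissue-restricted isoforms or paralogs of complex IV subunits, 1 supercomplex factor, 2 genes named like ATP synthase subunits that are not, and 1 pseudogene.

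The study compared hippocampus of Rp58 hetero-KO mice, in which 1 allele of Rp58 is knocked out, with that of WT mice, at a younger and an older age. Rp58, now Zbtb18, is a zinc finger repressor of transcription needed for cortical and hippocampal development. Each of 4 groups had 1 one-colour Agilent array: Rp58 hetero-KO at 18 months, WT at 18 months, Rp58 hetero-KO at 4 months and WT at 4 months. Each array was labelled from 200 ng of RNA mixed from 3 independent samples, so the spread between mice was not measured. The older groups are labelled both 18 months and 1.5 years, and elsewhere 12 to 18 months. Nothing in the labels gives the sex of the mice, the part of Rp58 removed or the strain.

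The respiratory chain passes electrons from NADH and succinate through complexes I to IV to oxygen and pumps protons across the inner mitochondrial membrane. ATP synthase, complex V, uses the proton gradient to make ATP. Most subunits are encoded in the nucleus and a small core of complexes I, III, IV and V in mitochondrial DNA. Complexes I, III, IV and V therefore need transcripts from both genomes, and complex II does not. Neurons depend on the chain for the ATP that drives ion pumps and synaptic transmission.

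Signals are given as a level, the processed signal of a spot divided by the 75th percentile of its array, and differences as log2 of the ratio of levels. A level depends on the probe as well as on the transcript, so levels rank probes by brightness and are not read as relative amounts of different transcripts. The 75th percentile of the signal was 1714 and 1734 on the hetero-KO and WT arrays at 18 months, against 2111 and 1975 on those at 4 months. Between 77.9% and 81.9% of spots were well above background, and 0 spots were saturated. The targeted gene, Zbtb18, had a level of 21.4 in hetero-KO and 18.9 in WT hippocampus at 18 months, a log2 difference of 0.18. At 4 months its level was 15.2 in hetero-KO and 17.5 in WT, a difference of −0.20, and whether the probe lies in the removed part is not stated. All 10 hippocampal neuron markers looked up were well above background on all 4 arrays. Eif2s3y, Uty and Ddx3y, which are Y-linked, were well above background on 3 arrays and not on that of hetero-KO at 4 months. Xist was well above background at 4 months in both genotypes and at 18 months in neither. The sex makeup of the pools therefore differs between ages, and between genotypes at 4 months. At 18 months Eif2s3y had a level of 1.33 in hetero-KO and 1.30 in WT, and Uty 0.383 and 0.398. The part of sex makeup in the results below was not tested. In pooled bulk RNA, fewer cells of a type and less RNA per cell cannot be told apart.

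The respiratory chain genes are among the bright features of the array. Of 95 members well above background on all 4 arrays, 69 lay in the top 10% of mean level of the 27361 genes measured on all arrays, and 68 of these were subunits. The median member stood at percentile 97.1 of level. The remaining member, Cox8c, a testis isoform of the smallest complex IV subunit, was not well above background on any array, with measured values of 0.00187 in hetero-KO and 0.00170 in WT at 18 months, and 0.00152 in hetero-KO and 0.00283 in WT at 4 months.

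Between ages, most members had higher levels at 18 months under 75th percentile scaling, by a small amount, and this was not so under quantile scaling. In hetero-KO, 78 of 95 members were higher at 18 than at 4 months, beside 59.3% of all genes, with a median log2 difference of 0.11 against 0.04 for all genes. In WT, 81 of 95 were higher, beside 58.3% of all genes, with a median of 0.16 against 0.04. Quantile scaling, which gives every array the same distribution of signals, put the medians at −0.03 in hetero-KO and 0.01 in WT. It left 30 of 95 members higher in hetero-KO, beside 51.4% of all genes, and 51 of 95 in WT, beside 53.7% of all genes. Cyclic loess gave medians of −0.01 in hetero-KO and 0.03 in WT.

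The brightest genes of the array as a whole were also higher at 18 months under 75th percentile scaling, and not under quantile scaling. In the top 10% of level, the 2737 genes had a median age difference of 0.14 in hetero-KO and 0.15 in WT, and the 69 members among them had 0.14 in hetero-KO and 0.18 in WT. In the 5th of 10 equal groups by level the median of all genes was 0.00 in both genotypes, and in the dimmest group it was 0.04 in hetero-KO and −0.01 in WT. After quantile scaling the top 10% of all genes had a median of 0.00 in hetero-KO and 0.01 in WT, and the members in it −0.03 in hetero-KO and 0.02 in WT. Across the 95 members, the mean log2 level and the age difference had a Pearson correlation of 0.67 in hetero-KO and 0.56 in WT under 75th percentile scaling, and of 0.17 and 0.26 in those genotypes under quantile scaling. These are correlations across genes of the same arrays, which are not independent replicates. Summed levels of 10 microglia markers were 58.3 in hetero-KO and 49.8 in WT at 18 months, against 37.8 in hetero-KO and 36.5 in WT at 4 months, and 8 of them rose with age in limma's fit (3 under quantile scaling). The sums of 10 neuron markers were 309.8 in hetero-KO and 293.1 in WT at 18 months, against 276.3 in hetero-KO and 267.5 in WT at 4 months, and 0 of them passed (5 higher and 1 lower at an unadjusted p below 0.05, against 0 higher and 3 lower under quantile scaling). The part of cell makeup in the age differences was not tested.

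**Figure D1:**
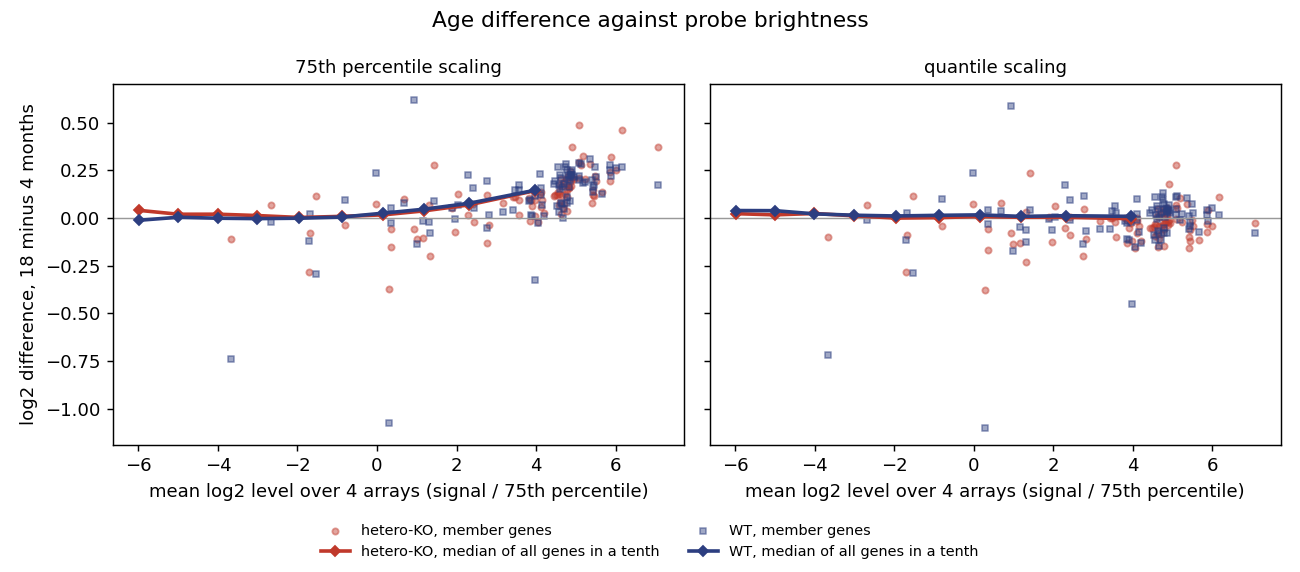
Log2 difference between 18 and 4 months (vertical axis) against the mean log2 level over 4 arrays (horizontal axis), under 75th percentile scaling (left) and quantile scaling (right). Points are respiratory chain genes and joined diamonds are medians of all genes in 10 equal groups by level, in hetero-KO (red) and WT (blue); Cox8c is left out. Under 75th percentile scaling the medians are 0.04 in hetero-KO and −0.01 in WT in the dimmest group, 0.00 in both in the 5th, and 0.14 in hetero-KO and 0.15 in WT in the brightest, where 69 members lie; quantile scaling gives 0.00 in hetero-KO and 0.01 in WT there.

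An additive limma fit of genotype and age over the 4 arrays was the main test, since pairs of single arrays allow none. It has 1 residual degree of freedom, which is the genotype by age difference of a gene, and its variance estimate borrows from other genes. With 1 pooled array per group, the SEs and p-values measure neither the spread between replicate arrays nor that between mice. For age, 3 of 95 members rose at a Benjamini-Hochberg adjusted p below 0.05 and 0 fell, beside 1.11% of the 29065 genes tested that rose and 0.568% that fell. At an unadjusted p below 0.05, 53 members were higher and 1 lower, beside 16.7% and 6.9% of all genes. Under quantile scaling 0 members passed the adjusted threshold in limma, beside 0.186% of genes higher and 0.399% lower. There, 1 member was higher and 13 were lower at an unadjusted p below 0.05, beside 10.1% and 8.78% of all genes.

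The 3 genes that rose with age were Uqcrq, Cox6c and Atp5g1, small subunits of complexes III, IV and V. Uqcrq, the subunit of complex III next to cytochrome b (chr11:53242471-53242530, mm9), had a level of 46.8 in hetero-KO and 44.0 in WT at 18 months, against 38.4 in hetero-KO and 35.5 in WT at 4 months. Cox6c, a small membrane subunit of cytochrome c oxidase (chr15:35861751-35861810, mm9), had 37.7 in hetero-KO and 36.9 in WT at 18 months, against 30.8 in hetero-KO and 30.2 in WT at 4 months. Atp5g1, one of 3 genes for the proton-carrying c subunit of ATP synthase (chr11:95934315-95934374, mm9), had 38.0 in hetero-KO and 38.8 in WT at 18 months, against 31.4 in hetero-KO and 32.0 in WT at 4 months. In all 3 both arrays at 18 months were above both arrays at 4 months. The log2 changes with age were 0.30 ± 0.04 for Uqcrq, 0.29 ± 0.04 for Cox6c and 0.28 ± 0.04 for Atp5g1 (SE), with limma adjusted p-values of 0.0479, 0.0481 and 0.0494 in the order named. Under quantile scaling they were 0.09, 0.09 and 0.08, with limma adjusted p-values of 0.26, 0.275 and 0.307. In the authors' deposited table, whose 18-month columns match none of the scanner arrays, the change was −0.05 for Uqcrq, 0.08 for Cox6c and −0.19 for Atp5g1. Atp5g1 has 3 measured probes and the age difference of the other two was smaller, at 0.06 and 0.01 in hetero-KO and at 0.11 and 0.00 in WT; Uqcrq and Cox6c have 1 probe each.

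Between genotypes, the respiratory chain genes as a group differed by 0.02 on the log2 scale at the median at both ages under 75th percentile scaling, and the sign of that median turned with the scaling. At 18 months, 58 of 95 members were higher in hetero-KO than in WT, beside 47.8% of all genes, with a median of 0.02 against −0.01 for all genes. At 4 months, 63 of 95 were higher, beside 44.3% of all genes, with a median of 0.02 against −0.02. Equally bright genes had like medians. In the top 10% of level, all 2737 genes had 0.03 at 18 months and 0.02 at 4 months. The 69 members among them had 0.02 at 18 months and 0.03 at 4 months. Quantile scaling gave −0.01 at 18 months, with 37 of 95 higher beside 48.2% of all genes, and 0.01 at 4 months, with 52 of 95 higher beside 47.9%. In limma's additive fit 0 of 95 members passed the adjusted threshold for genotype, beside 0.0103% of all genes higher and 0% lower in hetero-KO. At an unadjusted p below 0.05, 4 members, Ndufa5, Ndufa8 and Uqcrq among them, were higher and 2, Cox6b2 and Cox8b, lower in hetero-KO, beside 5.15% and 6.3% of all genes. The genotype difference at 18 months minus that at 4 months had a median of −0.02 over the members, a value with no test.

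**Figure D2:**
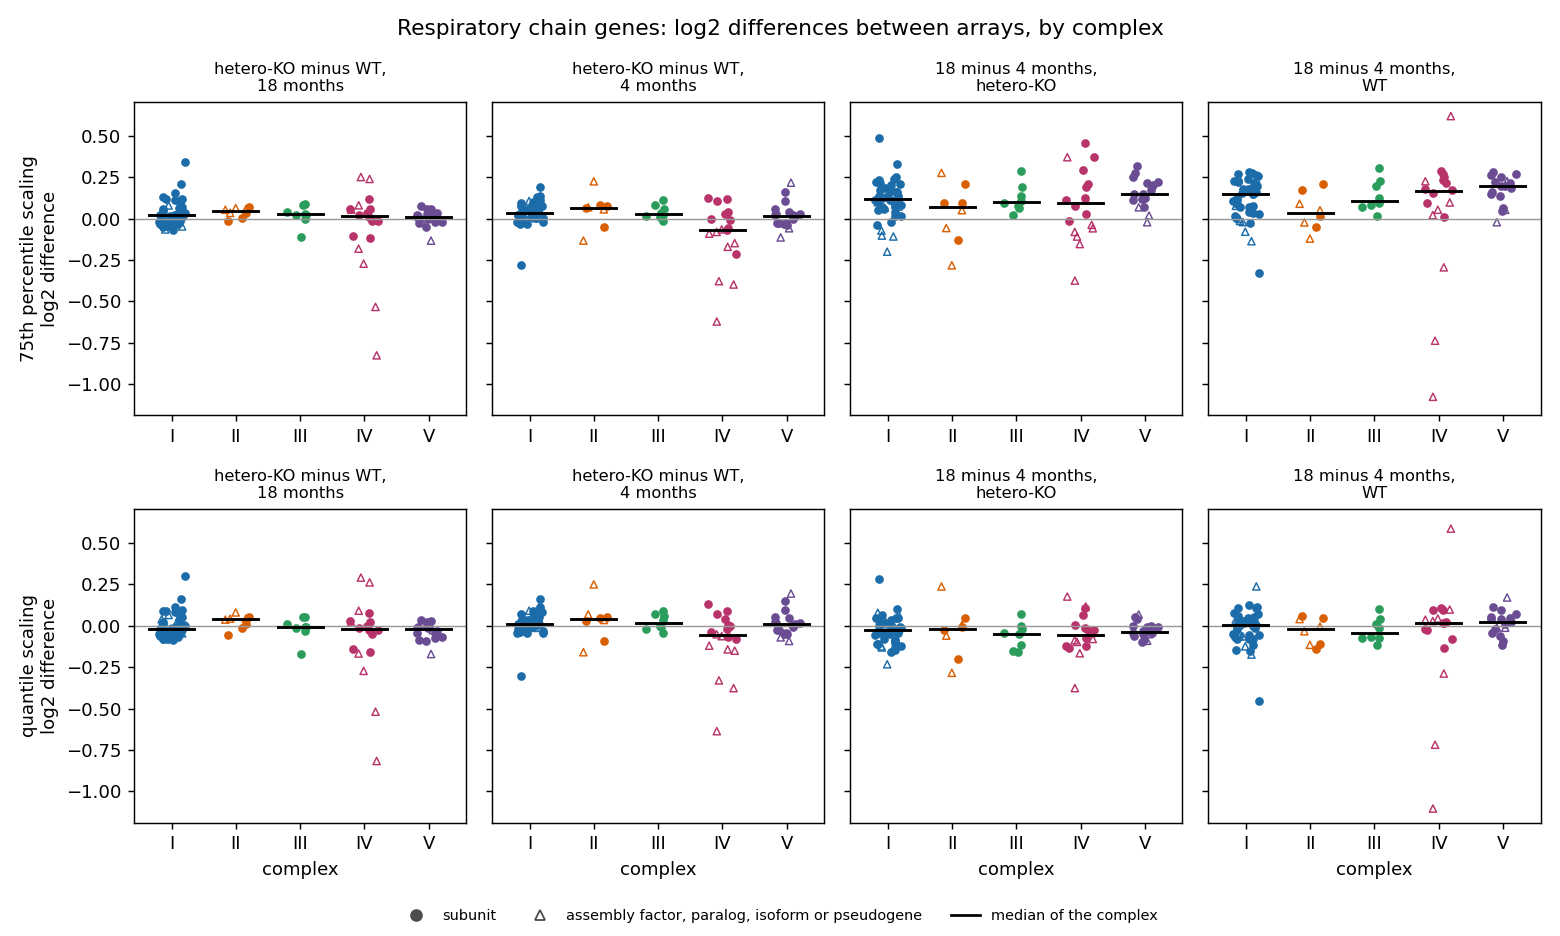
Log2 differences of the respiratory chain genes (vertical axis) by complex I to V (horizontal axis), for hetero-KO minus WT at 18 and at 4 months and for 18 minus 4 months in hetero-KO and in WT. The upper row has 75th percentile scaling and the lower row quantile scaling; filled circles are subunits, open triangles are assembly factors, isoforms, paralogs or the pseudogene, bars are medians, and Cox8c is left out. The median age difference of the genes grouped with complex V, Atp5s, Atp5sl and the pseudogene among them, is 0.15 in hetero-KO and 0.20 in WT in the upper row. It is −0.04 and 0.02 in the lower row. The open triangles of complex IV reach −1.08 in WT with age.

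Promoter letters are shown for the group because transcription factors that coordinate nuclear respiratory genes are known by short motifs. RefSeq promoter windows of build GRCm38.p6, from 250 bases before to 50 bases after the start, were found for 79 of the 96 members (82.3%), and both strands were searched. A gene was counted if any of its windows held the letters. The letters GCATGCGC of nuclear respiratory factor 1 were in 12 of the 79 members with a window (15.2%), against 3.05% of all genes with a window. The letters CCGGAAG bound by ETS factors such as GABP were in 20 (25.3%), against 9.93% of all genes, and AAGATGGC of YY1 in 11 (13.9%), against 3.19%. AAGGTCA, bound by estrogen-related receptors, was in 8 (10.1%), against 5.38%, and GGGCGG of SP factors in 38 (48.1%), against 38.2%. ACATCTG, bound by RP58, was in 3 members (3.80%), Atp5c1, Ndufaf4 and Ndufb4, against 5.10% of all genes. A match is a description and not a site. No motif contains another. Both GCATGCGC and CCGGAAG were held by 5 members. Of these, the 250 bases before the start are shown for Atp5l, a membrane subunit of ATP synthase that was higher at 18 months in both genotypes under 75th percentile scaling, and for Cox6a1, the common isoform of complex IV subunit VIa. Capitals mark GCATGCGC and CCGGAAG or their reverse complements; both genes lie on the minus strand and are printed 5′ to 3′ toward the start.
Atp5l, chr9:44920743-44920992 (GRCm38.p6, minus strand): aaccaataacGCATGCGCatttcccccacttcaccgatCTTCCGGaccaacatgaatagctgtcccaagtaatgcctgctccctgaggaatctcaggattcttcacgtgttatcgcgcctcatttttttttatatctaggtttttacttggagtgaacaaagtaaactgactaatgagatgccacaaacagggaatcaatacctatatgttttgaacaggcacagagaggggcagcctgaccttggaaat
Cox6a1, chr5:115348959-115349208 (GRCm38.p6, minus strand): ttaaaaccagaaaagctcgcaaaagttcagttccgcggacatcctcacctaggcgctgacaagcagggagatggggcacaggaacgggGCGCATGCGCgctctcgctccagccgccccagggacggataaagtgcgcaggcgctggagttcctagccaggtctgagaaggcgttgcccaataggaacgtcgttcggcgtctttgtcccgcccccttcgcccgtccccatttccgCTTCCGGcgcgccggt
In Atp5l GCATGCGC begins 240 bases and the ETS letters 212 bases before the start. In Cox6a1 GCATGCGC or its reverse complement matches from 162 bases before the start, where overlapping matches on both strands run together, and the ETS letters from 16 bases before it.

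Complex I oxidises NADH, and its 7 nuclear core subunits carry the flavin, the iron-sulphur clusters and the ubiquinone site. Of the 36 subunits, 34 were higher at 18 months in hetero-KO and 34 in WT, with median differences of 0.13 in hetero-KO and 0.16 in WT; quantile scaling gave −0.03 and 0.01, with 13 and 21 of 36 higher in those genotypes. Ndufv1, which binds NADH and the flavin, had a level of 30.2 in hetero-KO and 29.8 in WT at 18 months, against 25.9 in hetero-KO and 25.5 in WT at 4 months. Its age difference was 0.22 in hetero-KO and 0.23 in WT, and 0.05 and 0.08 under quantile scaling. Ndufv2, a partner iron-sulphur protein, differed with age by 0.14 in hetero-KO and 0.12 in WT. Ndufs3, Ndufs7 and Ndufs8 belong to the Q module, which reduces ubiquinone, and their age differences were 0.17, 0.11 and 0.06 in hetero-KO and 0.07, 0.11 and 0.16 in WT. Their genotype differences lay between −0.05 for Ndufs8 and 0.11 for Ndufs3 at 18 months and between −0.02 for Ndufs7 and 0.05 for Ndufs8 at 4 months.

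Ndufs1, the largest iron-sulphur subunit of complex I (chr1:63190360-63190419, mm9), stood apart from the other core subunits. Its level was 16.7 in hetero-KO and 13.2 in WT at 18 months, against 16.6 in hetero-KO and 16.6 in WT at 4 months, so that the WT array at 18 months was low and the other 3 alike. Hetero-KO minus WT was 0.34 at 18 months, which made Ndufs1 the 1 member higher there by at least 0.32, a fold rule used throughout, beside 5.97% of all genes. Its age difference in WT was −0.33, and both differences kept their sign under quantile scaling, at 0.30 and −0.45. A second probe of Ndufs1 gave 0.07 for hetero-KO minus WT at 18 months and 0.07 for age in WT. That probe was 72.9-fold dimmer, with a level of 0.225 in hetero-KO and 0.214 in WT at 18 months. The genotype difference of Ndufs1 in limma's additive fit had an adjusted p of 0.512.

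Among the 29 accessory subunits of complex I, which surround the core and steady it, age differences ran from −0.04 for Ndufa9 to 0.49 for Ndufb9 in hetero-KO, and from −0.03 for Ndufa10 to 0.28 for Ndufb2 in WT. Ndufb9, a membrane arm subunit (chr15:58770972-58771031, mm9), had a level of 38.0 in hetero-KO and 38.5 in WT at 18 months, against 27.1 in hetero-KO and 33.0 in WT at 4 months. The hetero-KO array at 4 months was the lowest of the 4, and hetero-KO minus WT was −0.28 at 4 months and −0.02 at 18 months. Its age difference in hetero-KO was 0.28 under quantile scaling. Ndufa5, which sits beside the Q module, had 42.8 in hetero-KO and 37.0 in WT at 18 months, against 34.1 in hetero-KO and 32.6 in WT at 4 months. Ndufa8 had 7.48 in hetero-KO and 6.89 in WT at 18 months, against 6.88 in hetero-KO and 6.02 in WT at 4 months, and was the highest of complex I in the genotype comparison at 4 months, at 0.19. In limma's additive fit the genotype change was 0.16 ± 0.04 (SE) for Ndufa8 and 0.14 ± 0.05 for Ndufa5, with adjusted p-values of 0.373 and 0.422. Ndufb10 was the lowest of complex I between genotypes at 18 months, at −0.07.

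The 7 assembly factors of complex I with the prefix Ndufaf, which build the complex and are not part of it, had a median age difference on the other side of 0 from the subunits under 75th percentile scaling. It was −0.07 in hetero-KO and −0.02 in WT, beside 0.13 and 0.18 for the accessory subunits in those genotypes, and quantile scaling gave −0.12 in hetero-KO and −0.06 in WT. Ndufaf2, a late assembly factor, had a level of 2.38 in hetero-KO and 2.40 in WT at 18 months, against 2.73 in hetero-KO and 2.54 in WT at 4 months. Ndufaf4 had 1.94 in hetero-KO and 1.90 in WT at 18 months, against 2.09 in hetero-KO and 2.09 in WT at 4 months. Of the 7, 3 were higher at 18 months in hetero-KO and 2 in WT, among them Ndufaf6, with 0.07 in hetero-KO and 0.24 in WT. The 41 assembly factors with other names had median age differences above 0, at 0.06 in hetero-KO and 0.08 in WT (0.01 and 0.02 under quantile scaling). The 7 Ndufaf genes were also dimmer than the complex I subunits, with a median level of 2.17 against 26.5 in hetero-KO at 18 months. The difference between factors and subunits was not tested.

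Complex II, succinate dehydrogenase, links the tricarboxylic acid cycle to the chain and holds no subunit encoded in mitochondrial DNA. The flavoprotein Sdha had a level of 15.0 in hetero-KO and 14.7 in WT at 18 months, against 14.1 in hetero-KO and 14.6 in WT at 4 months. The iron-sulphur subunit Sdhb had 27.3 in hetero-KO and 26.1 in WT at 18 months, against 23.7 in hetero-KO and 22.5 in WT at 4 months. Of the membrane anchors, Sdhc had 6.55 in hetero-KO and 6.52 in WT at 18 months, against 7.17 in hetero-KO and 6.77 in WT at 4 months. Sdhb was higher and Sdhc lower on both arrays at 18 months than on both at 4 months, with age differences for Sdhb of 0.21 in hetero-KO and 0.21 in WT, and for Sdhc of −0.13 in hetero-KO and −0.05 in WT. Sdhd differed by 0.09 in hetero-KO and 0.17 in WT. Under quantile scaling the differences were 0.05 in hetero-KO and 0.05 in WT for Sdhb, and −0.20 in hetero-KO and −0.14 in WT for Sdhc. Among the assembly factors, Sdhaf1, which helps load iron-sulphur clusters, differed with age by 0.28 in hetero-KO and 0.09 in WT, and Sdhaf3 by −0.28 in hetero-KO and −0.12 in WT. Sdhaf3 was the highest of complex II between genotypes at 4 months, at 0.22, and Sdhaf1 the lowest, at −0.13.

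Complex III passes electrons from ubiquinol to cytochrome c. On the brightest probe of each gene, all 8 of its members were higher at 18 months in both genotypes under 75th percentile scaling. Under quantile scaling 2 in hetero-KO and 3 in WT were higher. The lowest probe difference with age in WT was −0.18 for Uqcrb and −0.14 for Uqcrfs1, whose second probe was 914-fold dimmer. In hetero-KO the lowest was 0.03 for Uqcrb and 0.04 for Uqcrfs1. The median age difference was 0.10 in hetero-KO and 0.11 in WT, against −0.05 and −0.04 under quantile scaling. The core proteins Uqcrc1 and Uqcrc2 differed by 0.10 and 0.02 in hetero-KO and by 0.09 and 0.08 in WT, and the Rieske iron-sulphur protein Uqcrfs1 by 0.06 in hetero-KO and 0.01 in WT. The 5 accessory subunits had a median of 0.13 in hetero-KO and 0.20 in WT, with Uqcrq at the top in both. Uqcrq was also the highest of complex III between genotypes, at 0.09 at 18 months and 0.11 at 4 months. Its genotype change in limma's additive fit was 0.10 ± 0.04 (SE), with an adjusted p of 0.42. The lowest were Uqcr10 at 18 months, at −0.11, and Uqcrc1 at 4 months, at −0.02.

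Complex IV, cytochrome c oxidase, reduces oxygen, and its 10 common nuclear subunits had median age differences of 0.16 in hetero-KO and 0.19 in WT, against −0.03 and 0.01 under quantile scaling. Cox4i1, the common isoform of subunit IV, had a level of 60.2 in hetero-KO and 65.5 in WT at 18 months, against 52.7 in hetero-KO and 54.9 in WT at 4 months. Cox5a had 46.8 in hetero-KO and 44.9 in WT at 18 months, against 43.2 in hetero-KO and 39.7 in WT at 4 months. In both genes each array at 18 months was above both arrays at 4 months, and quantile scaling put the age difference of Cox4i1 at −0.07 in hetero-KO and 0.02 in WT, and that of Cox5a at −0.12 and −0.02. Cox8a had 85.2 in hetero-KO and 78.4 in WT at 18 months, against 62.0 in hetero-KO and 65.1 in WT at 4 months. Cox6a1 had 146 in hetero-KO and 148 in WT at 18 months, against 113 in hetero-KO and 131 in WT at 4 months. Cox7a2l, which joins complexes III and IV in supercomplexes, had 33.7 in hetero-KO and 32.5 in WT at 18 months, against 26.1 in hetero-KO and 27.8 in WT at 4 months. In these 3 genes the hetero-KO array at 4 months was the lowest.

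Those 3 genes, Ndufb9 and Ndufa5 were the 5 members higher by at least 0.32 at 18 months in hetero-KO, beside 10.8% of all genes, and Cox6a2 was the 1 lower by at least 0.32, beside 7.72%. Quantile scaling left 0 members higher, beside 9.39% of all genes, and Cox6a2 as the 1 lower, beside 8.03%. It put the age difference in hetero-KO at 0.11 for Cox8a, −0.03 for Cox6a1 and 0.18 for Cox7a2l, against 0.46, 0.37 and 0.37 under 75th percentile scaling.

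The tissue-restricted isoforms and the paralog of complex IV subunits held every member that was lower in hetero-KO than in WT by at least 0.32, and their medians moved little between 75th percentile and quantile scaling. Under 75th percentile scaling all 7 that were measured were lower in hetero-KO than in WT at 4 months, with a median of −0.17, while 44.3% of all genes were higher. At 18 months 4 of 7 were lower, with a median of −0.18, while 47.8% of all genes were higher. Quantile scaling gave −0.15 at 4 months and −0.17 at 18 months, with the same counts. These 7 were dim, with a median level of 0.481 in hetero-KO and 0.696 in WT at 18 months, against 35.3 and 35.1 for the common subunits. The part of level in their differences was not tested. The 3 members lower by at least 0.32 in hetero-KO at 4 months (Cox6a2, Cox6b2 and Cox7b2), beside 8.89% of all genes, belong to this class, as do the 2 at 18 months (Cox8b and Cox6b2), beside 8.28%. At 4 months 0 members were higher by that much, beside 4.61%. In WT, Cox6a2, Cox7b2 and Ndufs1 were lower by at least 0.32 at 18 months, 3 members beside 7.68% of all genes, and 1 was higher, Cox8b, beside 7.42%.

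Cox6a2, the heart and skeletal muscle isoform of subunit VIa (chr7:135349160-135349219, mm9), had a level of 0.979 in hetero-KO and 0.926 in WT at 18 months, against 1.27 in hetero-KO and 1.95 in WT at 4 months. WT at 4 months was the highest array, and both arrays at 18 months were below both at 4 months. The age difference was −0.38 in hetero-KO and −1.08 in WT, a 2.11-fold lower level at 18 months in WT and the only member difference of 2-fold or more in that comparison, beside 0.757% of all genes lower and 0.592% higher. Hetero-KO minus WT was 0.08 at 18 months and −0.62 at 4 months. The age change in limma's additive fit was −0.73 ± 0.17 (SE), with an adjusted p of 0.101, and quantile scaling gave −0.74. Beside it, 8 of 10 thalamus and habenula markers fell with age in limma's fit, and their summed level was 6.37 in hetero-KO and 9.89 in WT at 18 months, against 20.4 in hetero-KO and 27.2 in WT at 4 months. The summed level of 10 striatum markers was 10.6 in hetero-KO and 11.9 in WT at 18 months, against 28.6 in hetero-KO and 13.97 in WT at 4 months, and 0 of them passed in limma (7 lower at an unadjusted p below 0.05). Of the markers in both lists, Gbx2 alone was not well above background on every array, and their part in the Cox6a2 values was not tested.

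Cox6b2, the testis isoform of subunit VIb (chr7:4703488-4703547, mm9), had a level of 0.481 in hetero-KO and 0.696 in WT at 18 months, against 0.494 in hetero-KO and 0.651 in WT at 4 months. Both hetero-KO arrays were below both WT arrays. The genotype difference was −0.53 at 18 months and −0.40 at 4 months, a 1.45-fold and a 1.32-fold lower level. In the authors' deposited table it was −0.25 at 18 months, and −0.40 at 4 months, where the table holds the same scanner values. Between ages Cox6b2 differed in that table by −1.02 in hetero-KO and −1.17 in WT, against −0.04 and 0.10 on the scanner arrays. The genotype change in limma's additive fit was −0.47 ± 0.07 (SE), with an unadjusted p of 0.00139 and an adjusted p of 0.198. Quantile scaling gave −0.45 with an adjusted p of 0.215 in limma. The common isoform Cox6b1 differed by 0.02 at 18 months and 0.10 at 4 months.

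Cox8b, the heart and skeletal muscle isoform of subunit VIII (chr7:148084852-148084911, mm9), had a level of 1.59 in hetero-KO and 2.82 in WT at 18 months, against 1.66 in hetero-KO and 1.83 in WT at 4 months. The WT array at 18 months was high and the other 3 were alike. Hetero-KO minus WT was −0.83 at 18 months and −0.15 at 4 months, and the age difference was −0.06 in hetero-KO and 0.62 in WT. The genotype change in limma's additive fit was −0.49 ± 0.16 (SE), with an adjusted p of 0.41. The common isoform Cox8a differed between genotypes by 0.12 at 18 months and −0.07 at 4 months. The summed level of 10 choroid plexus markers was 102 in hetero-KO and 128 in WT at 18 months, against 88.8 in hetero-KO and 110 in WT at 4 months. The bright marker Ttr made up 78.9 and 88.7 of the sums at 18 months. All 10 were lower in hetero-KO at both ages, with a median hetero-KO minus WT of −0.83 at 18 months and −0.39 at 4 months. Their median age difference was −0.19 in hetero-KO and 0.24 in WT. The part of these markers in the Cox8b values was not tested.

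Cox7b2, a testis isoform of subunit VIIb (chr5:71834167-71834226, mm9), had a level of 0.0738 in hetero-KO and 0.0620 in WT at 18 months, against 0.0796 in hetero-KO and 0.103 in WT at 4 months. Hetero-KO minus WT was 0.25 at 18 months and −0.38 at 4 months, and the age difference was −0.11 in hetero-KO and −0.74 in WT. In the authors' deposited table hetero-KO minus WT was −0.35 at 18 months and −0.38 at 4 months, and the age difference was 0.57 in hetero-KO and 0.55 in WT, with the opposite sign. Cox7a1, the muscle isoform of subunit VIIa, had 1.15 in hetero-KO and 1.39 in WT at 18 months, against 1.28 in hetero-KO and 1.34 in WT at 4 months. Cox4i2, the isoform of subunit IV best known from lung, had 0.291 in hetero-KO and 0.330 in WT at 18 months, against 0.308 in hetero-KO and 0.325 in WT at 4 months. Ndufa4l2, a hypoxia-induced paralog of Ndufa4, had 0.363 in hetero-KO and 0.307 in WT at 18 months, against 0.335 in hetero-KO and 0.377 in WT at 4 months. For these 4 genes limma's additive fit gave genotype changes between −0.17 for Cox7a1 and 0.03 for Ndufa4l2, with adjusted p-values of at least 0.46. Summed levels of 10 vascular smooth muscle and pericyte markers were 14.9 in hetero-KO and 13.4 in WT at 18 months, against 14.3 in hetero-KO and 15.7 in WT at 4 months. The common partners Cox7b, Cox7a2, Cox4i1 and Ndufa4 differed between genotypes by 0.06, −0.02, −0.12 and 0.01 at 18 months and by 0.04, −0.01, −0.06 and 0.12 at 4 months.

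**Figure D3:**
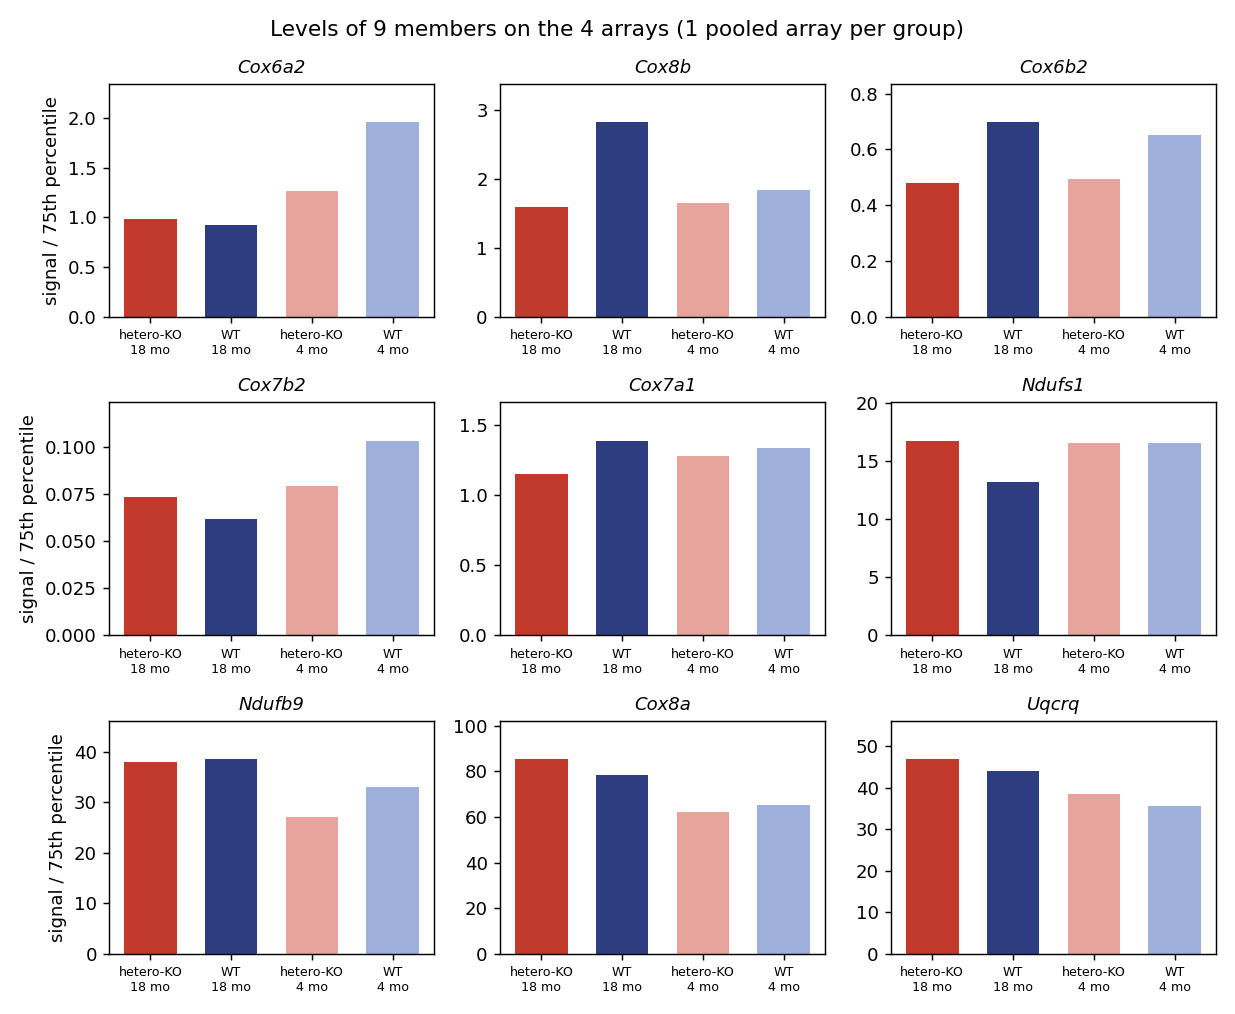
Level (signal divided by the array's 75th percentile, vertical axes from 0) of 9 respiratory chain genes in hetero-KO and WT hippocampus at 18 months and at 4 months, 1 pooled array per bar and no error bar. Cox6b2 is lower in both hetero-KO arrays (0.481 and 0.494) than in both WT arrays (0.696 and 0.651), Cox8b is high and Ndufs1 low in WT at 18 months alone (2.82 and 13.2), and Cox6a2 is highest in WT at 4 months (1.95).

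Complex V, ATP synthase, had median age differences over its 15 subunits of 0.17 in hetero-KO and 0.20 in WT. On the brightest probe of each gene, all 15 were higher at 18 months in both genotypes. Quantile scaling left 3 of 15 higher in hetero-KO and 10 of 15 in WT, with medians of −0.03 and 0.03. In WT, another measured probe of Atp5a1, Atp5b, Atp5f1, Atp5g3, Atp5j and Atp5j2 was lower at 18 months under 75th percentile scaling. In hetero-KO this held for Atp5g3 alone. The other probes of Atp5d, Atp5g1, Atp5h, Atp5k, Atp5l and Atp5o were higher in both genotypes. Second probes of Atp5g3, Atp5j and Atp5j2 were at least 63.5-fold dimmer than the brightest. The catalytic F1 head is built on Atp5a1 and Atp5b. Atp5a1 had a level of 70.4 in hetero-KO and 69.8 in WT at 18 months, against 59.0 in hetero-KO and 58.2 in WT at 4 months. Atp5b had 66.9 in hetero-KO and 63.6 in WT at 18 months, against 53.6 in hetero-KO and 54.7 in WT at 4 months. Their age changes in limma's additive fit were 0.26 ± 0.03 for Atp5a1 and 0.27 ± 0.04 for Atp5b (SE), with adjusted p-values of 0.0504 and 0.0573, and quantile scaling gave 0.01 for each. The second probe of Atp5a1, 7.41-fold dimmer, differed with age by 0.08 in hetero-KO and −0.07 in WT. That of Atp5b, 1.89-fold dimmer, differed by 0.13 in hetero-KO and −0.01 in WT. The 3 genes for the c subunit, Atp5g1, Atp5g2 and Atp5g3, encode the same mature protein and differed with age by 0.28, 0.17 and 0.15 in hetero-KO and by 0.28, 0.20 and 0.16 in WT. The smallest age differences of the Fo and stalk subunits were those of Atp5f1, the peripheral stalk subunit b, at 0.07 in hetero-KO and 0.05 in WT.

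Of the members named like ATP synthase subunits that are not subunits, Atp5s, a coupling factor, differed with age by 0.07 in hetero-KO and −0.02 in WT, and the pseudogene Atp5c1-ps by −0.02 in hetero-KO and 0.05 in WT; its probe may share signal with the parent gene Atp5c1. Atp5sl, whose RefSeq symbol is Dmac2, is grouped with complex V by its array name alone. It differed with age by 0.02 in hetero-KO and 0.23 in WT. Between genotypes it differed by 0.01 at 18 months and 0.22 at 4 months, the highest there of the genes so grouped. Between genotypes the 15 subunits had medians of 0.02 at 18 months and 0.02 at 4 months, with 9 of 15 higher at each age, against 4 at 18 months and 9 at 4 months under quantile scaling. Over all 95 members, the age difference in hetero-KO and that in WT, which share no array, had a Pearson correlation of 0.62 across genes (0.45 under quantile scaling), beside 0.66 (0.62) for all genes in the top 10% of level. The genotype differences at 18 and at 4 months had 0.21 (0.16), beside 0.32 (0.33).

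Other genes of mitochondrial and energy metabolism were read from lists chosen for pathway. Of the subunits encoded in mitochondrial DNA, 11 were on the array, and hetero-KO minus WT was above 0 in 11 of 11 at 18 months and in 0 of 11 at 4 months, beside 47.8% and 44.3% of all genes, with medians of 0.09 and −0.07. With age, 11 of 11 were higher in hetero-KO and 8 of 11 in WT, beside 59.3% and 58.3% of all genes, with medians of 0.23 and 0.07, and 0 passed limma's adjusted threshold, with 5 higher and 0 lower at an unadjusted p below 0.05, against 0 higher and 5 lower under quantile scaling. Quantile scaling left 9 and 4 of 11 higher in hetero-KO than in WT at 18 and 4 months, and 5 of 11 in hetero-KO and 1 of 11 in WT higher with age. COX1, the catalytic subunit of complex IV, had a level of 114 in hetero-KO and 114 in WT at 18 months, against 86.3 in hetero-KO and 105 in WT at 4 months. Like Cox6a1, Cox8a and Ndufb9, it was lowest in hetero-KO at 4 months.

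In limma's additive fit for age, 0 of 6 subunits and carriers with other names, such as cytochrome c, passed the adjusted threshold, and neither did any of 41 assembly factors, 18 tricarboxylic acid cycle enzymes and 78 mitochondrial ribosome proteins. At an unadjusted p below 0.05, 3 of the first list, 13 assembly factors, 7 cycle enzymes and 30 mitochondrial ribosome proteins were higher, and 0, 0, 0 and 2 were lower, beside 16.7% of all genes higher and 6.9% lower. Under quantile scaling 0, 2, 1 and 11 were higher and 1, 0, 2 and 3 lower, beside 10.1% and 8.78%. Of 16 glycolysis enzymes, 4 rose (Aldoa, Aldoc, Gpi1 and Ldha), and of 77 cytosolic ribosome proteins tested, 18 rose, beside 1.11% of all genes. Under quantile scaling 0 of either list passed, with 1 glycolysis enzyme and 12 ribosome proteins higher at an unadjusted p below 0.05 and 4 and 2 lower. Of 18 genes of mitochondrial biogenesis, only Esrrg fell, a nuclear receptor that turns on respiratory genes. Its level was 0.673 in hetero-KO and 0.682 in WT at 18 months, against 1.09 in hetero-KO and 1.07 in WT at 4 months, an age change of −0.67 ± 0.06 (SE) with a limma adjusted p of 0.035, and of −0.68 with 0.033 under quantile scaling. Ppargc1a, its coactivator, differed with age by −0.28 in hetero-KO and −0.15 in WT, with an adjusted p of 0.109 in limma. Of the 10 thalamus and habenula markers given beside Cox6a2, 8 fell with age in limma's fit (7 under quantile scaling), and their part in the Esrrg values was not tested.

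Probes of the same member did not always give the same difference. Of 41 members with more than 1 probe, 38 had more than 1 measured on all arrays. In 12 of these all probes lay within 0.2 of each other in every comparison, and in 3 (Atp5f1, Ndufb2 and Ndufs5) they lay over 0.5 apart in some comparison. The second probe had the sign of the brightest in 28 of 38 members for age in hetero-KO, 23 for age in WT, 20 for genotype at 18 months and 23 for genotype at 4 months. Some second probes were far dimmer than the brightest, up to 1161-fold in Ndufs5, where the second had levels of 0.033 in hetero-KO and 0.017 in WT at 18 months. Such pairs are not comparable measures of a gene. The error of a difference from the scanner software's spot errors had a median of 0.20 on the log2 scale, and it covers the scan of a spot and not the spread between RNA samples.

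**Figure D4:**
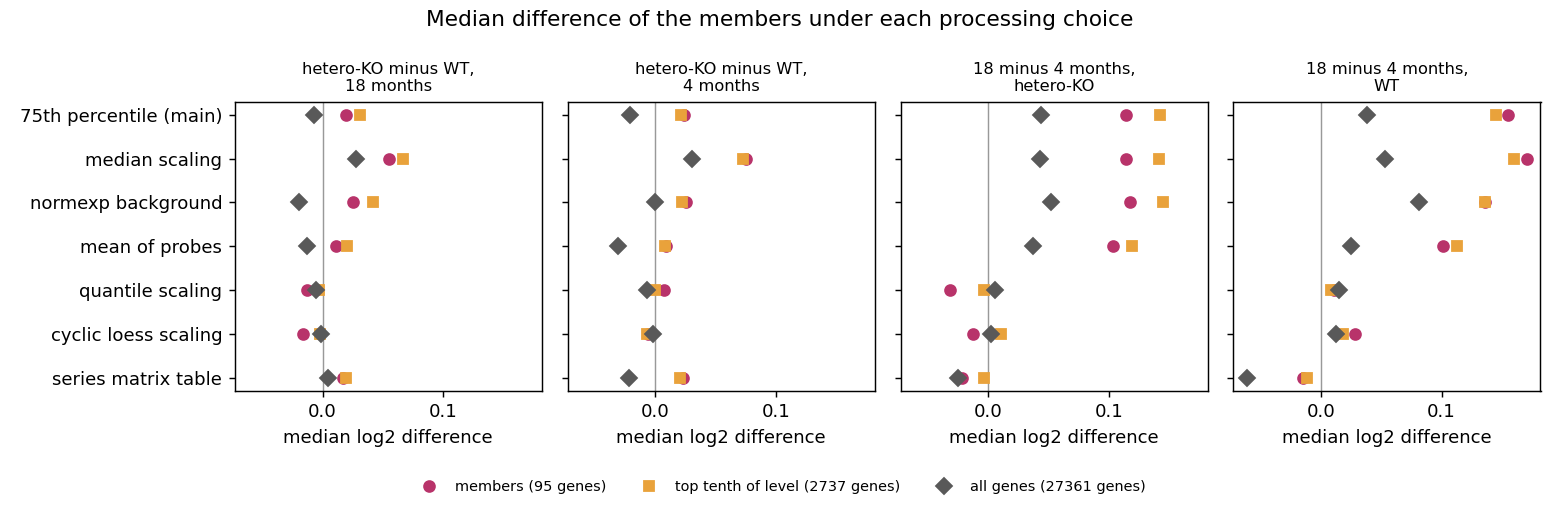
Median log2 difference (horizontal axes) of the 95 members, of all genes in the top 10% of level and of all genes measured on 4 arrays, under each processing choice (rows), for hetero-KO minus WT at 18 and 4 months and 18 minus 4 months in hetero-KO and WT. The member median of the age difference is 0.11 in hetero-KO and 0.16 in WT under 75th percentile scaling and turns to −0.03 in hetero-KO and falls to 0.01 in WT under quantile scaling.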

How the data were processed

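RNA of 4 pooled hippocampus samples was measured on 1 array each. The deposited scanner files hold spot intensity, already background-subtracted and detrended, with surrogate values where dim, by version 11.5.1.1 of Agilent's Feature Extraction per the file headers (build mm9). The authors' deposited table holds a linear ratio. Its 4-month columns equal the intensity over the array's 75th percentile, and its 18-month columns match no scanner array (highest correlation of log2 values 0.985), so it served only as an alternative.

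Log2 intensity minus the array's 75th percentile was used, spots of a probe were averaged, and the probe with the highest mean level stood for a gene. Measured means that 50% or more of a probe's spots were called above background by the scanner software. Of 56605 probes, 33903 were named through RefSeq accessions, 119 of the 150 member probes among them. Pairs of arrays were compared without a test, by counts at 0.32 and 1 on the log2 scale. Genotype and age were tested in limma 3.58.1 (R 4.3.3), an additive fit with eBayes and a variance trend. It covered 29065 genes measured on at least 2 arrays, with Benjamini-Hochberg adjustment at 0.05. The fit was also run on simulated data with known genotype changes and noise scaled to the residuals of these arrays. Those data check neither the age test nor the spread between mice. The number of arrays limits the precision. Named were members that passed the fit, the highest and lowest of each complex per comparison, unmeasured members, isoform pairs and core subunits; other names were chosen after their values were seen. Members and lists were chosen with earlier results of these data known. Alternatives were quantile, cyclic loess and median scaling, normexp background (offset 50), the mean of probes, the table, subunits alone, and other filters and fits. Positions within exons were not analysed here. The values of 1 core subunit are not reported here.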

Additional observations from a re-analysis of the deposited data

Results flagged for a closer look

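The genotype difference of Cox7b2 had opposite signs at the older and the younger age: hetero-KO minus WT was 0.25 at 18 months and −0.38 at 4 months on the log2 scale, each larger than the scanner's error for its spots (0.21 at both ages). That error leaves out the spread between RNA samples, and with 1 array per group the difference between ages was not tested. With normexp background the values were 0.13 at 18 months, below that error, and −0.25 at 4 months. In the deposited table they were −0.35 at 18 months and −0.38 at 4 months, so the opposite signs were not seen there.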

How the results depend on the processing

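The median age difference of the members, 0.11 in hetero-KO and 0.16 in WT, became −0.032 and 0.011 under quantile scaling, −0.013 and 0.028 under cyclic loess and −0.022 and −0.015 in the deposited table; under median scaling, normexp and the mean of probes it kept its sign. The genotype median of 0.02 at 18 months became −0.013 under quantile scaling and −0.016 under cyclic loess, and that of 0.02 at 4 months became −0.0060 under cyclic loess. The genotype by age median of −0.02 became 0.00060 with the mean of probes. Counting subunits alone, members at least 0.32 apart on the log2 scale numbered 1 at 18 months and 0 at 4 months between genotypes and 1 with age in WT. Over all members, those at least 0.32 apart with age in hetero-KO numbered 1 under quantile scaling and 2 under cyclic loess, against 6 under 75th percentile scaling. Members that passed limma's age test, 3 at first, numbered 0 under quantile, cyclic loess and median scaling, with the mean of probes, with no filter, without the variance trend and without genotype in the model, 5 when measured on all 4 arrays, 14 with normexp and 21 in the table (8 higher, 13 lower). At an unadjusted p below 0.05 those with 0 had, in that order, 1, 6, 54, 42, 48, 19 and 49 higher and 13, 8, 1, 4, 2, 0 and 1 lower. In all of these 0 members passed for genotype. All genes called for age, 322 higher and 165 lower, became 54 and 116 under quantile scaling, 32 and 86 under cyclic loess, 114 and 105 under median scaling, 1031 and 283 with normexp, 557 and 213 on all arrays, 27 and 57 with the mean of probes, 49 and 64 without genotype, 4582 and 5276 in the table and 0 without a filter or a trend. All genes called for genotype, 3 higher and 0 lower, became 8 and 2 on all arrays, 9 and 5 with normexp, 1 and 7 in the table, 2 and 0 under cyclic loess, median scaling and the mean of probes, 1 and 0 without age, and 0 without a filter or a trend. In the table the age change of Atp5g1 was −0.19 and that of Uqcrq −0.051, and that of Cox6c was 0.076. Of 180 single differences, quantile scaling moved 17 beyond the spot error, all between ages, and the table moved 48. Leaving out saturated spots could change nothing, as there were 0. No paired analysis was possible because each group has 1 array. The cause of these shifts was not tested.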
